A study of Mus musculus with 7 samples.

Results

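The 10 genes described here encode the main heat shock chaperones: Hspa1a and Hspa1b (the inducible Hsp70 pair), Hspa8 (constitutive Hsc70), Hspa5 (BiP, the Hsp70 of the endoplasmic reticulum), Hsp90aa1 and Hsp90ab1 (cytosolic Hsp90), Dnajb1 (an Hsp40), Hsph1 (an Hsp110), Hspb1 (a small heat shock protein) and Hspe1 (the mitochondrial Hsp10). They were chosen by name, not by a measured value, out of 21436 protein-coding genes with a transcription start site (TSS). Chromatin was measured by ATAC-seq, in which the Tn5 transposase cuts DNA where it is accessible, in 7 libraries of 5000 freshly isolated muscle stem cells (MuSCs). The groups were Nedd4L-cKO (n = 4) and Nedd4L-WT (n = 3). In Nedd4L-cKO mice a constitutive Pax7-Cre removes a floxed exon in the catalytic part of the E3 ubiquitin ligase Nedd4L, in Pax7-expressing cells and their descendants. All mice were males aged 5 to 6 weeks on a C57BL/6 background, and MuSCs were sorted from hindlimb muscle as ITGA7-positive cells without CD31, CD45, CD11b or SCA1. Peak calls do not read the deleted exon, so they do not check the genotype labels.

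Chaperones bind unfolded proteins and help them to fold, to be held or to be passed on. HSF1, the heat shock transcription factor, binds inverted repeats of the unit GAA, known as heat shock elements, in front of many of these genes, whereas Hspa5 is driven by the unfolded protein response of the endoplasmic reticulum through the ER stress response element (CCAAT and CCACG held 9 bases apart). Dissociation and sorting of muscle are themselves known to stress cells, and all 7 libraries went through both.

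On mm10 the RefSeq spans of the Hsp70 genes are Hspa1a at chr17:34969359-34972156 (minus strand), Hspa1b at chr17:34956429-34959238 (minus strand), Hspa5 at chr2:34772090-34776529 (plus strand) and Hspa8 at chr9:40801276-40805202 (plus strand). Those of the Hsp90 genes are Hsp90aa1 at chr12:110691036-110696395 (minus strand) and Hsp90ab1 at chr17:45567778-45573261 (minus strand). Those of the other 4 are Dnajb1 at chr8:83608175-83612653 (plus strand), Hsph1 at chr5:149616843-149636498 (minus strand), Hspb1 at chr5:135887919-135889563 (plus strand) and Hspe1 at chr1:55088148-55091317 (plus strand).

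The promoters are shown first because every later value was read over them. RefSeq promoter windows (GRCm38.p6, the assembly of mm10) were at hand for 7 of the 10 genes. The 250 bases before the TSS are printed 5′ to 3′ on the gene's strand for the near-identical Hsp70 pair, for Hspb1 and for Hspa5. Capitals mark 2-unit heat shock element matches (GAANNTTC or TTCNNGAA), or in Hspa5 the ER stress response element.
Hspa1a, chr17:34972157-34972406, minus strand: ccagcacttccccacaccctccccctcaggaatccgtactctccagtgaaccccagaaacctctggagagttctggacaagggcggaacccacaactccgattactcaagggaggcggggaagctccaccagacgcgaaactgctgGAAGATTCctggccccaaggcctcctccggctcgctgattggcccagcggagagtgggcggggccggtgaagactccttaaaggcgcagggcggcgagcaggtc
Hspa1b, chr17:34959239-34959488, minus strand: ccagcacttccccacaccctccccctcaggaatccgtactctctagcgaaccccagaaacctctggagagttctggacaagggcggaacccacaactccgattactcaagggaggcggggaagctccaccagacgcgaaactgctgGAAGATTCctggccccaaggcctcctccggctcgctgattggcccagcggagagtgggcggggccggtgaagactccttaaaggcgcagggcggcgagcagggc
Hspb1, chr5:135887669-135887918, plus strand: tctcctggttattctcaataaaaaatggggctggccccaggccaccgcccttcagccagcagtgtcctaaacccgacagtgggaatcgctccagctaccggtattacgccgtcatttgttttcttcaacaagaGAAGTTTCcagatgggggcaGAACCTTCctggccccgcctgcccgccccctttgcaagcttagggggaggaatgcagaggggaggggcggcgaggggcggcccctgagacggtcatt
Hspa5, chr2:34771840-34772089, plus strand: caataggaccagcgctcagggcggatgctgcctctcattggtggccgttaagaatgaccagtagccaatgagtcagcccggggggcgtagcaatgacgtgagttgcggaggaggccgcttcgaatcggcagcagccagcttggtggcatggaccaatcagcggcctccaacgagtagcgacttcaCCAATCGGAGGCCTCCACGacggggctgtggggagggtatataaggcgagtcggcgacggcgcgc
For Hspe1 and Hsph1 only 30 bases around the matches are shown, since these lie within annotated gene spans, that of the neighbour Hspd1 and that of Hsph1 itself. The RefSeq promoter window of Hsph1 ends at a start 162 bp inside the outermost one, which is the TSS used for the peaks.
Hspe1, chr1:55088053-55088082, plus strand: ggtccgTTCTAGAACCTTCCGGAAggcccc
Hsph1, chr5:149636351-149636380, minus strand: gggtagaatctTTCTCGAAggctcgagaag

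GAANNTTC was found in 4 of the 7 windows (Hspa1a, Hspa1b, Hspb1 and Hspe1) and in 6.69% of 32851 mouse promoter windows of the same length, on either strand, which for this palindrome is the same search. TTCNNGAA was found in Hspe1, in the Hsph1 window before its inner start, and in 7.17% of all windows. A run of 3 alternating units was found in Hspe1 alone of the 7, and in 0.466% of all windows. These matches overlap, so the marked stretch of Hspe1 is a single run of units. In Hspb1 the 2 matches began 117 and 97 bases before the TSS, and in both Hsp70 genes the match began 104 bases before it. The ER stress response element was found in Hspa5, beginning 65 bases before the TSS, and in 0.113% of all windows. CCAAT stood in 5 of the 7 windows (33.8% of all windows) and GGGCGG in 7 of 7 (32.7% of all windows), on either strand. The exact spelling TATAAA was in none of the 7, and in 12.4% of all windows. Other TATA spellings were not searched for, and the printed Hspa5 window holds TATATAA. The Dnajb1 window held neither heat shock element spelling. A match describes letters and not bound protein.

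Each of the 10 promoters lay under a called peak in 7 of 7 libraries (overlap of at least 1 bp with the TSS ± 1 kb). Of all protein-coding promoters, 59.7% were called in all 7 libraries. A single broad peak covered each chaperone TSS, and each of these peaks held 1 narrow summit region in every library. The whole windows (gene span ± 5 kb) held 16 to 18 peaks per library in all, covering 21.8 to 23.5 kb, and the peaks of all libraries merged into 20 regions. Of these, 15 were called in all 7 libraries, 10 over the promoters and 5 elsewhere. Over the whole genome, 53245 of 95163 merged regions were called in all 7 libraries.

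**Figure D1:**
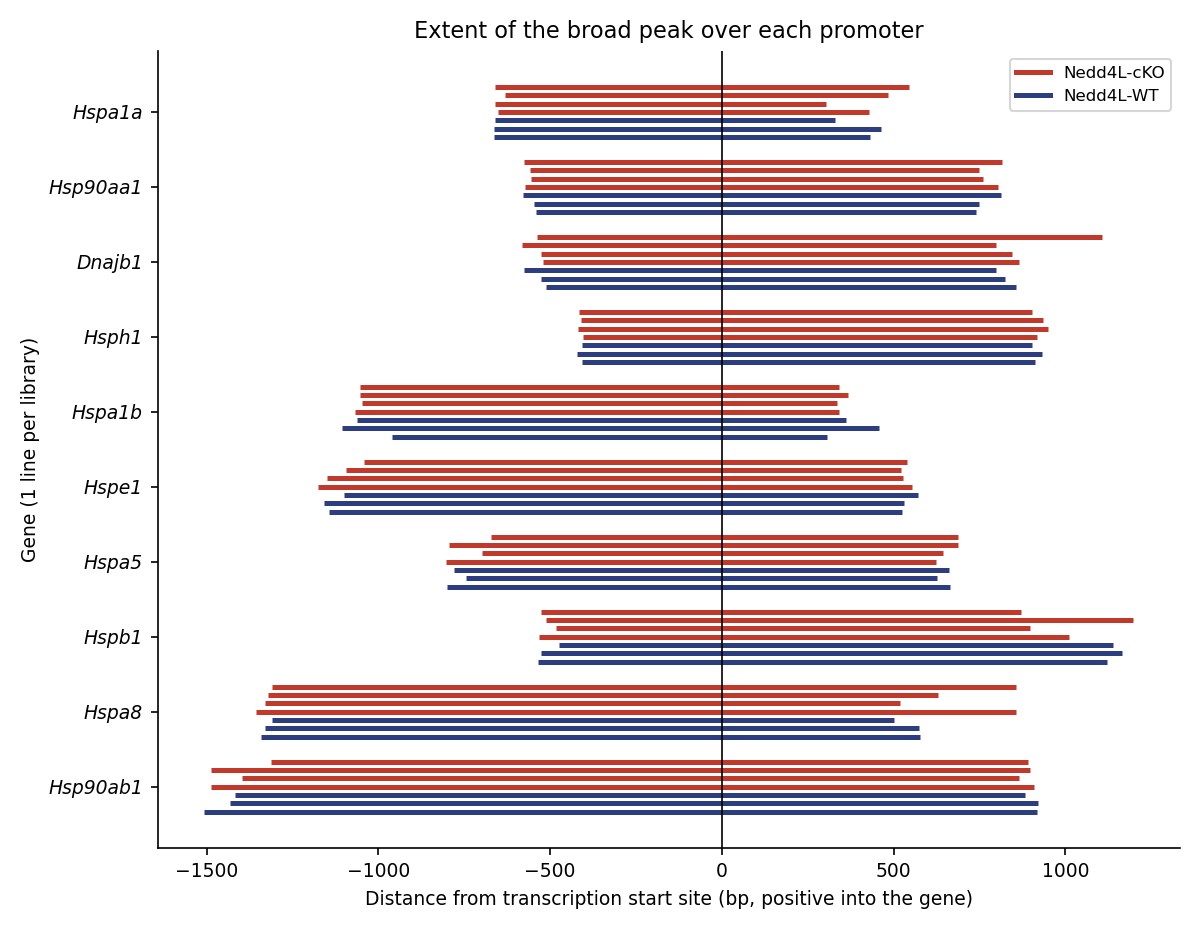
Extent of the broad peak over each of the 10 promoters, 1 line per library, in bp from the TSS (positive into the gene), red for Nedd4L-cKO and blue for Nedd4L-WT. The upstream edge of Hspa1b lies 960 to 1105 bp before the TSS and that of Hspa1a 632 to 664 bp, and the peaks of Hsp90ab1 and Hspa8 are the longest.

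Library depth was similar between the groups. MACS2, the peak caller, kept 15041837 to 20084685 tags in Nedd4L-cKO and 14429374 to 17414121 in Nedd4L-WT, and called 69302 to 79158 and 71575 to 72350 peaks. The promoters of 9 of 9 MuSC markers (Pax7, Myf5, Myod1, Itga7, Cdh15, Vcam1, Sdc4, Calcr and Cd34) were called in all 7 libraries. Those of Ptprc, Itgam, Pecam1 and Ly6a, which encode the antigens sorted against, were called in 0 of 7. The promoters of the fibro-adipogenic marker Pdgfra and of the negative control Pou5f1 were also called in 0 of 7. Of all protein-coding promoters, 59.7% were called in all 7 libraries, and the share called in none is not given. Read at the outermost annotated start, Nedd4l was likewise called in 0 of 7. Hsf2 was too, although a strong peak lay inside its outermost start. A missing call by this rule therefore does not by itself show a closed gene. Nedd4L-WT replicate 3 was the only library named for lane 2.

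Peak strength was read in 2 ways. The pileup is the mean number of extended tags over the peak and grows with depth. The fold enrichment is that pileup over a background estimated from the same library. Both were therefore also given as percentiles among all peaks of a library, with 0 for the lowest and 100 for the highest peak.

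By pileup, the chaperone promoters stood near the top of every library. The pileup percentile was between 95.3 and 99.7 for 9 genes, and between 84.1 and 88.1 for Hspb1. The median promoter peak of any gene lay at 83.9 to 85.7, so Hspb1 was close to a typical promoter. Hsph1 had the highest median pileup, with 72.5, 60.7, 71.3 and 83.9 tags in Nedd4L-cKO and 73.0, 74.5 and 65.3 in Nedd4L-WT. Hspb1 had the lowest, with 38.9, 33.1, 38.1 and 42.4 tags in Nedd4L-cKO and 42.3, 37.2 and 37.0 in Nedd4L-WT. In both genes the values of the groups overlapped, and replicate 4 of Nedd4L-cKO, the deepest library, was the highest. Below Hspe1 at a median of 54.8 tags, Hspb1 was set apart without overlap in 7 of 7 libraries. All other neighbours in the order of pileup had overlapping ranges.

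By fold enrichment the same promoters spread widely. Hspa1a stood highest, with fold values of 5.88, 5.84, 6.49 and 6.03 in Nedd4L-cKO and 6.27, 6.27 and 6.46 in Nedd4L-WT. It lay above every other member in each library, at percentiles of 93.5 to 98.8. Hsp90aa1, Dnajb1 and Hsph1 followed at percentiles of 85.7 to 92.4, with ranges that overlapped and an order that changed between libraries. Hspa1b lay at 81.0 to 89.7, Hspe1 at 74.9 to 82.3, Hspa5 at 71.4 to 82.8 and Hspb1 at 63.3 to 76.7. The median promoter peak lay at 75.3 to 78.4, so the last 3 of these genes lay near a typical promoter.

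**Figure D2:**
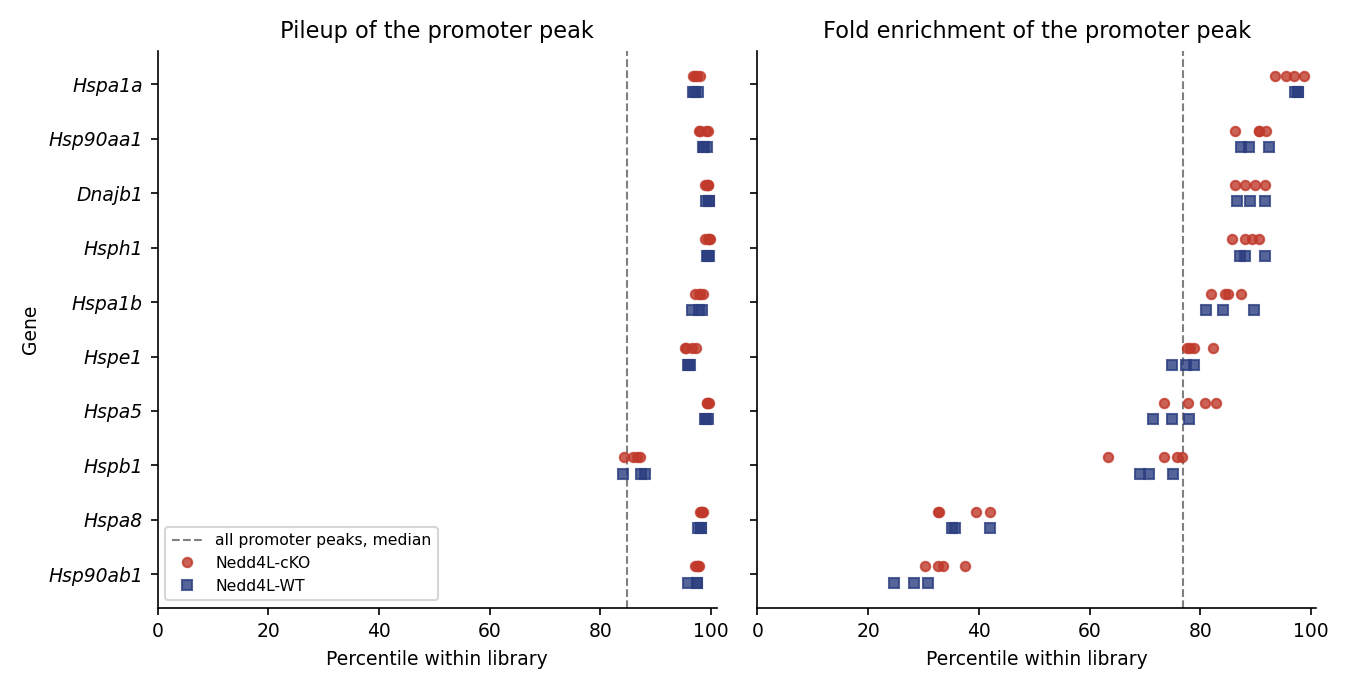
Percentile of the pileup (left) and of the fold enrichment (right) of each promoter peak among all peaks of its library, 1 point per library, with circles for Nedd4L-cKO and squares for Nedd4L-WT. The dashed line is the median promoter peak over all genes. Hspa8 and Hsp90ab1 lie above 95 by pileup and below 43 by fold, and the points of the groups overlap for every gene.

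Hspa8 and Hsp90ab1, the constitutively expressed members of the cytosolic Hsp70 and Hsp90 families, stood apart from the other 8 by fold. Hspa8 had fold values of 3.31, 3.22, 3.37 and 3.35 in Nedd4L-cKO and 3.33, 3.37 and 3.57 in Nedd4L-WT. Hsp90ab1 had 3.33, 3.17, 3.22 and 3.24 in Nedd4L-cKO and 3.24, 3.20 and 3.16 in Nedd4L-WT. Neither range reached that of the next gene, Hspb1, whose lowest fold was 3.99. Their fold percentiles were 32.5 to 42.1 and 24.7 to 37.4, against pileup percentiles of 97.7 to 98.5 and 95.9 to 97.9. Among promoter peaks in the top 5% of pileup, 10.0 to 15.7% had a fold at or below that of Hspa8 and 7.23 to 13.4% one at or below that of Hsp90ab1. High pileup with low fold was therefore uncommon among strong promoters but not particular to these genes.

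Dividing pileup by fold gives an approximate local background, estimated from the same tags. This quotient follows from the other 2 values and is not a separate measurement. It was highest at Hspa8 (16.3 to 20.7 tags) and Hsp90ab1 (15.9 to 20.4 tags), and lowest at Hspa1a (8.07 to 10.5 tags) and Hspb1 (8.24 to 9.92 tags). The median promoter peak had 6.82 to 8.90 tags. The same 2 genes had the longest peaks, 1813 to 2214 bp at Hspa8 and 2206 to 2428 bp at Hsp90ab1. Hspa1a had the shortest, 965 to 1207 bp, below the ranges of the other 9. Pileup and fold are means over a broad peak, and the part of peak length in the fold was not tested.

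**Figure D3:**
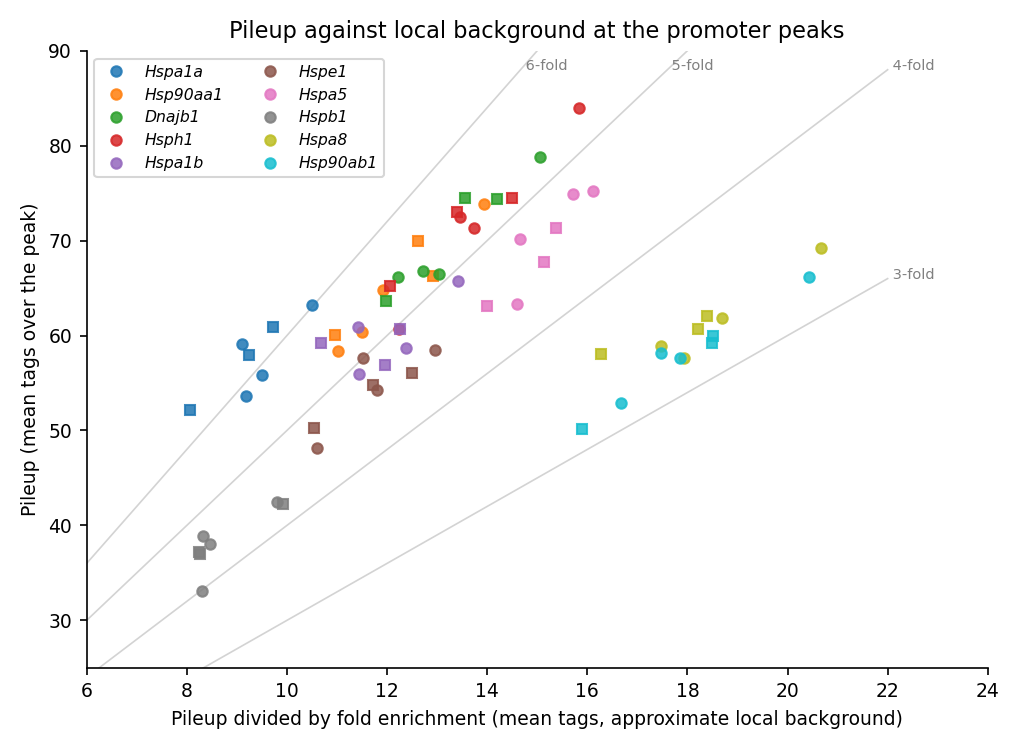
Pileup of each promoter peak against pileup divided by fold, both in mean tags, 1 point per gene and library, with circles for Nedd4L-cKO, squares for Nedd4L-WT and grey lines of equal fold. Hspa8 and Hsp90ab1 lie to the right, at a quotient of 15.9 to 20.7 tags, and Hspa1a lies along the line of 6-fold enrichment.

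The inducible Hsp70 pair could be compared within libraries. Hspa1a and Hspa1b lie side by side on chromosome 17 in the same orientation, and their 250 bases before the TSS differ at 3 positions, C44T, T47C and T249G (Hspa1a base first, positions counted from 1 at the 5′ end of the printed window), so that they are 98.8% identical. The fold at Hspa1a was higher than at Hspa1b in 7 of 7 libraries, by 1.10 ± 0.43 in Nedd4L-cKO libraries (SD, n = 4) and by 1.25 ± 0.30 in Nedd4L-WT libraries (SD, n = 3). Their pileups did not differ in a steady direction, with Hspa1a higher in 2 libraries and Hspa1b in 5, at 57.6 ± 4.0 and 59.7 ± 3.2 tags (SD, n = 7). Pileup divided by fold, which adds no separate measurement, was lower at Hspa1a in 7 of 7 libraries, 9.33 ± 0.73 against 11.9 ± 0.9 tags. The peak of Hspa1b was longer in 7 of 7, at 1409.9 ± 86.6 against 1083.7 ± 82.9 bp (SD, n = 7), with the upstream edge farther out in 7 of 7.

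These 2 genes are uncertain in one respect. Alignments of low mapping quality were dropped by the authors, and of the 100 stretches of read length (151 bases) in the window before the TSS, 51 are identical in both genes. In the transcripts, 1069 of 2817 such stretches of Hspa1a (37.9%) also occur in Hspa1b. The first of these begins at base 127 of the transcript. That transcript, of 2967 bases, is longer than the 2798 bp span used here, so base 127 is not a distance from the TSS used. Reads that fall wholly in such stretches cannot be placed from their own sequence, and their share in the pileups was not tested.

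Several peaks served more than 1 gene. The peak over Hspa1a also covered the TSS of Hspa1l, a testis-enriched Hsp70 that lies head to head with it. The peak over Hspe1 also covered the TSS of Hspd1, the Hsp60 partner of Hsp10, with which it shares a divergent promoter. For both pairs the peak values belong to either gene alike. At Hsp90ab1 the merged region also took in the start of the non-coding Gm35399, and at Dnajb1 that of Gm42029.

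Outside the promoters, 5 regions were called in all 7 libraries. Of these, 2 lay over other starts. The first was 5999 bp beyond the Hspa1b TSS at the non-coding 1110038B12Rik (pileup percentile 86.8 to 93.5, fold percentile 66.6 to 77.9). The second was 8553 bp beyond the Hsp90ab1 TSS at Slc35b2, a nucleotide sugar transporter gene (pileup percentile 95.7 to 99.1, fold percentile 49.1 to 69.0). The other 3 covered no annotated start. One lay 7418 bp from the Hsp90aa1 TSS, beyond the gene's end, with fold percentiles of 42.4 to 75.7 and pileup percentiles of 68.2 to 79.2. Another lay 5158 bp from the Hspa8 TSS, likewise beyond the end, at fold percentiles of 0.8 to 4.7 but pileup percentiles of 64.4 to 74.8. The last lay 23248 bp from the Hsph1 TSS, at fold percentiles of 14.6 to 48.3 and pileup percentiles of 37.8 to 54.3.

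Another 5 regions were called in some libraries only. The region 5617 bp beyond the Hspa5 TSS was called in 4 of 4 Nedd4L-cKO and 2 of 3 Nedd4L-WT libraries. Where it was called, its fold percentiles were at most 4.6 and its pileup percentiles 51.4 to 63.5. The region 5700 bp beyond the Hsp90ab1 TSS was called in 3 of 4 and 3 of 3, with fold percentiles of at most 0.3 but pileup percentiles of 76.1 to 81.1. In Hsph1, a 247 bp peak 1751 bp into the gene was called in Nedd4L-cKO replicates 2 and 4, at fold percentiles of 1.4 and 0.9. A 200 bp peak farther into Hsph1 was called in Nedd4L-WT replicate 3, and a 200 bp peak beyond Dnajb1 in Nedd4L-cKO replicate 2. No region in these windows was called in all libraries of one group and in none of the other. The share of all merged regions called in that way was not counted, so this absence cannot be read as particular to these genes. Where they were called, these 5 regions had fold percentiles of at most 25.8, with pileup percentiles from 9.0 to 81.1.

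The genotypes were then compared, to ask whether loss of functional Nedd4L in MuSCs changed accessibility at the chaperone genes. No difference was called at any of them. Ranks of fold and of pileup within each library were turned into normal scores (units of 1 SD of the ranks), and these and log2 peak length were tested with limma over 53245 regions called in all 7 libraries. At an adjusted p threshold of 0.05, 0 of the 15 chaperone regions passed for fold rank, pileup rank or peak length, and 0% of all regions passed in each (limma, Benjamini-Hochberg). At an unadjusted p under 0.05 there were likewise 0 of 15 for each measure, against 3.98%, 2.71% and 3.99% of all regions. The lowest unadjusted p among chaperone regions was 0.156 for fold rank, 0.259 for pileup rank and 0.0685 for peak length, by limma.

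By fold rank 5 promoters were higher and 5 lower in Nedd4L-cKO. The differences (Nedd4L-cKO minus Nedd4L-WT) had a median of 0.00 over the 10 promoters and 0.01 over all regions. By pileup rank 7 were higher and 3 lower, with a median of 0.03 against 0.00 over all regions. By length 5 were longer and 5 shorter. Values of the groups overlapped at 10 of 10 promoters for fold rank, pileup rank and peak length in bp, where 4.76%, 3.6% and 4.65% of all regions had groups without overlap.

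Of the 15 regions tested, the largest fold rank differences lay beyond gene ends, 0.34 in the region farthest from Hsph1 and -0.28 in the region beyond Hspa8, with unadjusted p of 0.156 and 0.162 (limma). Among the 10 promoters, the largest fold rank differences were at Hspa5, Hsp90ab1 and Hspa1a. At Hspa5 the fold percentile averaged 78.7 ± 4.1 in Nedd4L-cKO libraries (SD, n = 4) against 74.8 ± 3.3 in Nedd4L-WT libraries (SD, n = 3). The difference in normal scores was 0.15, with a 95% interval of -0.24 to 0.53. At Hsp90ab1 the Nedd4L-cKO libraries averaged 33.5 ± 2.9 (SD, n = 4) against 28.0 ± 3.1 (SD, n = 3). The score difference was 0.14 with an interval of -0.22 to 0.50. At Hspa1a they averaged 96.2 ± 2.2 (SD, n = 4) against 97.5 ± 0.3 (SD, n = 3). The score difference was -0.14 with an interval of -0.61 to 0.34. All 3 intervals include 0, and the adjusted p was 1.00 for each (limma). Their bounds, from -0.61 to 0.53, also include shifts in either direction, so equal accessibility was not shown. Single libraries moved these differences by over 1.5 times. The Hspa1a difference was -0.033 without Nedd4L-cKO replicate 1, -0.091 without replicate 2 and -0.29 without replicate 3. The Hspa5 difference was 0.084 without Nedd4L-cKO replicate 3 and 0.082 without Nedd4L-WT replicate 3, and that of Hsp90ab1 was 0.072 without Nedd4L-WT replicate 3.

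**Figure D4:**
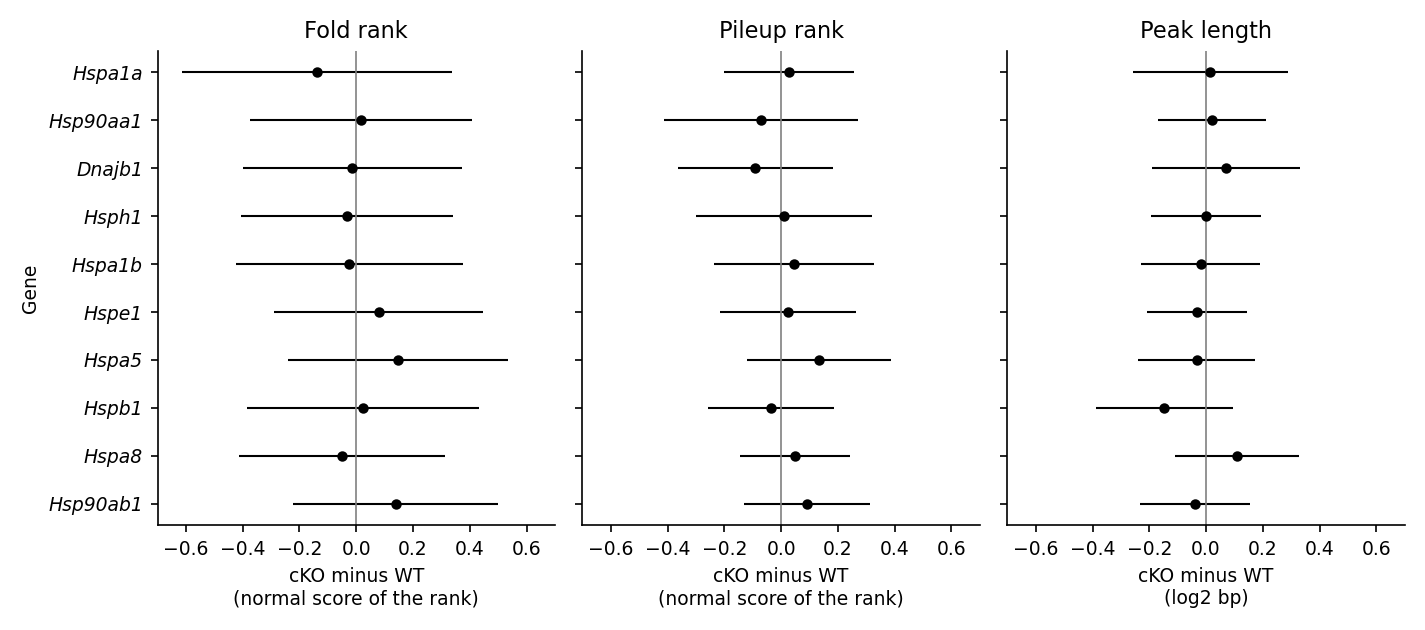
Difference between Nedd4L-cKO (n = 4) and Nedd4L-WT (n = 3) at each chaperone promoter in fold rank and pileup rank (normal scores) and in peak length (log2 bp), from limma, with 95% intervals. Every interval crosses 0, and the fold rank differences run from -0.14 at Hspa1a to 0.15 at Hspa5.

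Peak length gave the same picture. At Hspb1 the peak spanned 1398, 1712, 1381 and 1544 bp in Nedd4L-cKO and 1612, 1693 and 1658 bp in Nedd4L-WT. Replicates 1 and 3 of Nedd4L-cKO were the shortest, and replicate 2 was longer than any Nedd4L-WT library. At Hspa8 it spanned 2168, 1952, 1851 and 2214 bp in Nedd4L-cKO and 1813, 1907 and 1921 bp in Nedd4L-WT. At the remaining promoters the log2 differences ran from -0.04 to 0.07. The lowest p for length belonged to the region beyond Hsp90aa1, which spanned 907 to 1191 bp in Nedd4L-cKO and 643 to 1015 bp in Nedd4L-WT.

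Open length over the whole window was tested as a further measure, over 16038 genes. It was called different at 0 of 10 chaperone loci and at 0% of all genes (limma, adjusted p under 0.05), with 0 of 10 and 3.80% at an unadjusted p under 0.05. The lowest p, 0.118 by limma, was at Hsp90aa1, with 2383 ± 97 bp open in Nedd4L-cKO libraries (SD, n = 4) against 2099 ± 266 bp in Nedd4L-WT libraries (SD, n = 3). Hspa5 varied most within a group, from 1372 to 2749 bp in Nedd4L-WT, in step with the region of low fold beyond the gene that was not called in Nedd4L-WT replicate 2.

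A wider list of 61 chaperone and heat shock response genes gave the same picture. Their promoters were called in all 7 libraries for 58 of 61 genes (95.1%, against 59.7% of all protein-coding promoters). The median over genes was a pileup percentile of 96.0 and a fold percentile of 83.8. Of the 58, 35 had a higher and 23 a lower fold rank in Nedd4L-cKO, where 52.7% of all regions were higher. By pileup rank 29 were higher and 29 lower, where 49.6% of all regions were higher. None of the 58 (0) passed for fold or pileup rank, also at an unadjusted p under 0.05 (limma). Hspa1l and Hspd1 are counted here with the peaks they share with Hspa1a and Hspe1. Hsf1, the gene of the heat shock factor itself, lay at fold percentiles of 75.8 to 87.3, and Bag3, a co-chaperone gene, at 81.7 to 89.3. Hspa9 (mitochondrial Hsp70) lay at 68.7 to 77.6, Hsp90b1 (the Hsp90 of the endoplasmic reticulum) at 68.2 to 81.6 and Hspa2 (an Hsp70 known from the testis) at 72.3 to 86.7. Cryab, the small heat shock protein gene of differentiated muscle, lay lower by both measures, at pileup percentiles of 43.7 to 61.8 and fold percentiles of 3.4 to 23.8. These rest on its outermost annotated start, and no other start of Cryab was read, so they do not show that Cryab is weakly open. The span of Cryab encloses Hspb2, another small heat shock protein gene. The start of Hspb2 lay at pileup percentiles of 92.9 to 96.3 and fold percentiles of 28.1 to 39.2.

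The 3 genes not called throughout were Hspb7, Hsf2 and Unc45b. Hspb7, a small heat shock protein gene of heart and muscle, was called in 1 of 4 Nedd4L-cKO and 2 of 3 Nedd4L-WT libraries. Hsf2 and Unc45b, a myosin chaperone gene, were called in 0 of 7. At Hsf2 a strong peak lay 1914 to 2088 bp inside the outermost annotated start in every library, at pileup percentiles of 97.0 to 98.7, so the missing call rests on the start used. At Unc45b the nearest peak lay 2345 to 2506 bp upstream.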

How the data were processed

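The authors trimmed read pairs with Trimmomatic 0.39, aligned them to mm10 with BWA 0.7.17, dropped alignments of low mapping quality with SAMtools and removed duplicates with Picard 2.26.3. Per the file headers, MACS2 2.2.7.1 then called broad peaks in each library alone, with no control and no pooling, on read ends shifted by -100 bp and extended to 200 bp, at a q of 0.1 (broad) and 0.05 (narrow), with a local background over 10000 bp. The deposited pileup is a signal, the mean coverage over the peak and not scaled to depth. Fold enrichment, as the authors deposited it, is the ratio of that pileup to the background. The deposited p-values and q-values are -log10 values. The narrow parts came from the deposited gapped peak lists. The authors deposited the broad peak lists as well, which repeat these peaks and were not used here.

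Chromosomes 1 to 19, X and Y were used, and 2 peaks per library elsewhere were left out. Gene spans (RefSeq, GRCm38.p6) gave the TSS as the outer 5′ end. Strand came from the RefSeq promoter table, and from GENCODE where that had no entry, as for Hspa8, Hsp90aa1 and Hsp90ab1. A TSS was set for 21436 of 21883 protein-coding genes. No exon annotation on this assembly was used. Overlapping peaks (at least 1 bp) were merged over libraries. Ranks within a library became normal scores, and log2 lengths were centred on the library median. limma 3.58.1 (lmFit, eBayes, R 4.3.3) compared Nedd4L-cKO with Nedd4L-WT over all shared regions or genes, without covariates, with Benjamini-Hochberg adjustment. The fit was also run on simulated shifts with independent noise. Their recovery is not given here, so the power at these genes is not shown. Values named in the text are those of the 10 genes and of 8 genes of the wider list, all set by name, and of Hspb7, Hsf2, Unc45b and Hspb2, which were chosen after their values were seen. The members and lists were chosen with earlier results of these data known. The deposited files do not say whether each library was 1 mouse, while the study gives as many mice as libraries.

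No pair of libraries shared a peak with equal ends and pileup (0), a check that could reveal only copied files. Each library was counted as 1 replicate, as labelled. Replicate numbers were not taken as pairs, since the study states none. Deviations from the group means correlated at -0.12, 0.03 and -0.12 for same-numbered libraries by fold rank. By pileup rank they correlated at -0.22, 0.10 and -0.24. So few libraries cannot show whether any were paired. Tags kept ranged from 14429374 to 20084685 per library, and ranks within a library were used because the pileup grows with depth. Alternatives were a -log10 q of at least 5, equal numbers of peaks, other overlap, promoter and window definitions, other limma settings, a replicate block and leaving out each library. Sequences are from RefSeq, and motif searches and figures used Python 3.11.15.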

Additional observations from a re-analysis of the deposited data

Results flagged for a closer look

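In Nedd4L-cKO replicate 1 the promoter peak of Dnajb1 was 1645 bp long, and in the other 3 Nedd4L-cKO libraries it was 1373 to 1389 bp. In Nedd4L-WT it was 1352 to 1375 bp. The library was set apart because its gap to the nearest other value filled 0.941 of the range of its group. The added length lay inside the gene, where the edge was 1106 bp from the TSS, against 798 to 866 bp in the other 6 libraries. Of 30 such promoter measures tested in Nedd4L-cKO, 1 stood out, and chance gives about 1 in 20.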

How the results depend on the processing

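All 10 chaperone promoters were called in all libraries under every alternative for promoters, and the number of chaperone regions or loci called different between the genotypes was 0 in each alternative for fold rank, pileup rank, peak length and open length. With a replicate block (replicates 1 to 3 as blocks) the count was also 0 for each measure, and without Nedd4L-WT replicate 3, which leaves lane 1 alone, it was 0 as well. The replicate block changed no call. Nedd4L-cKO replicate 4 has no Nedd4L-WT library of its number, so the block takes it out of the genotype difference. The block therefore comes near the fit without that library and is hardly a separate check. At Hspe1 the fold rank difference was 0.125 with the block and 0.124 without Nedd4L-cKO replicate 4. Over all regions, where 0 were called, 3 were called different in peak length at a -log10 q of at least 5, and over all genes, likewise 0, open length gave 2 at that minimum, 1 over gene spans alone and 1 without the filter. At an unadjusted p under 0.05, where the reported tests had 0 chaperone regions or loci, 1 was found in 1 of 13 alternatives for fold rank, in 4 of 13 for peak length and in 3 of 12 for open length, and 0 in all 13 for pileup rank. The shares of all regions or genes at that p were not taken in the alternatives. In the reported tests they were 3.98% for fold rank, 2.71% for pileup rank, 3.99% for peak length and 3.80% for open length. The -log10 q minimum of 5 left 13 of the 15 chaperone regions to be tested. Differences near 0 changed sign when single libraries were left out, and none passed the threshold. For fold rank the differences then ran at Hspa1b from -0.12 to 0.091, Hsp90aa1 from -0.048 to 0.11, Dnajb1 from -0.086 to 0.067, Hsph1 from -0.084 to 0.049 and Hspb1 from -0.036 to 0.11. For pileup rank they ran at Hspa1a from -0.020 to 0.074, Hspa1b from -0.051 to 0.13, Hsp90aa1 from -0.17 to 0.0095, Hsph1 from -0.059 to 0.10, Hspb1 from -0.093 to 0.0042 and Hspe1 from -0.030 to 0.069. The fold rank difference of Hspb1 was -0.0017 at a -log10 q of at least 5, and the pileup rank difference of Hsph1 was -0.059 with the replicate block. The signs of the 10 promoters held in 116 of 130 alternative values for fold rank and 119 of 130 for pileup rank. With 4 and 3 libraries, the 95% intervals at the promoters reached 0.36 to 0.47 normal scores on either side for fold rank and 0.19 to 0.34 for pileup rank.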
